A study of Mus musculus with 18 samples.

Results

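Measured here were 10 transcription factor genes, 7 of the ETS family (Etv1, Etv4, Etv5, Ets1, Ets2, Elk3 and Elf4) and 3 of the EGR family (Egr1, Egr2 and Egr3). They were chosen by name from the 55401 gene identifiers of the count table, all 10 were found there, and all 10 passed the filter on low counts in both genetic series. Poly(A) RNA was sequenced from C57BL/6 mouse embryonic fibroblasts (MEFs), primary cells grown from mid-gestation embryos without head and viscera, in 18 libraries that formed 6 groups of 3. In the S6K1 series, WT (wild-type) MEFs carried an empty retrovirus (WT EV) or one for constitutively active HRAS (WT RAS), and S6K1 knockout MEFs carried the HRAS virus (KO RAS). The S6K1/S6K2 series held its own WT EV and WT RAS cells and S6K1/S6K2 double knockout cells with RAS (DKO RAS). S6K1 and S6K2, encoded by Rps6kb1 and Rps6kb2, are kinases of the mTORC1 pathway that phosphorylate ribosomal protein S6. The knockouts were carried by the whole embryo, KO and WT embryos were littermates, and the WT embryos of the S6K1/S6K2 series were not littermates of the DKO embryos. All cells had been infected and drug-selected. Knockout cells with the empty vector were not analysed here, so a comparison of KO RAS or DKO RAS with WT EV changed genotype and RAS together.

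ETS proteins bind DNA at a GGAA core through their shared ETS domain. Etv1, Etv4 and Etv5 form the PEA3 subfamily, whose transcription is a classic output of RAS-ERK signalling, and Elk3 is a ternary complex factor that binds beside serum response factor (SRF). EGR proteins are zinc finger factors of the immediate early response, transcribed within minutes of growth factor or stress signals, in part through ternary complex factors and SRF bound at CArG boxes. In fibroblasts an active RAS oncogene drives ERK and, with time, a senescent state with an inflammatory secretome, and the study asked what S6K1 and S6K2 contribute to that state.

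To show the sequence at the starts of these genes, the 250 bases before the transcription start were taken from RefSeq promoters (GRCm38.p6). Windows of 6 of the 10 genes were used (Etv1, Etv5, Ets2, Elk3, Elf4 and Egr2). Only 1 window per gene was searched, although 5 starts were listed for Egr2 and 2 each for Etv1, Etv5 and Elf4. Motifs found or missing below thus belong to the start used. Etv4, Ets1 and Egr3 had no entry, and Egr1 was left out and not searched. The windows of Etv1, Etv5 and Elk3, genes that rose with RAS, and of Egr2, the gene with the largest decrease in point estimate, are printed 5′ to 3′ on the strand of the gene. Capitals mark GGAA on either strand in Etv1 (chr12:38779832-38780081, + strand) and Elk3 (chr10:93311160-93311409, - strand), the GC box GGGCGG in Etv5 (chr16:22439571-22439820, - strand) and the CArG box in Egr2 (chr10:67537619-67537868, + strand).
Etv1: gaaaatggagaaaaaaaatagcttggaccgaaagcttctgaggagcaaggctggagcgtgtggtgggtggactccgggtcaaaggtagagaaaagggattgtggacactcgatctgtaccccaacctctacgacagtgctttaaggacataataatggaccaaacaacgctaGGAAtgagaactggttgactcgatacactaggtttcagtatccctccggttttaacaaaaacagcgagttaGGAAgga
Elk3: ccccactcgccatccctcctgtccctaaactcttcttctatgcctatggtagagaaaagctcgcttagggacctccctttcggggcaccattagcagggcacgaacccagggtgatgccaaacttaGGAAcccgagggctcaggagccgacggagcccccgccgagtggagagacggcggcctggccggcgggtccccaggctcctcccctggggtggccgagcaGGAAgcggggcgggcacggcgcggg
Etv5: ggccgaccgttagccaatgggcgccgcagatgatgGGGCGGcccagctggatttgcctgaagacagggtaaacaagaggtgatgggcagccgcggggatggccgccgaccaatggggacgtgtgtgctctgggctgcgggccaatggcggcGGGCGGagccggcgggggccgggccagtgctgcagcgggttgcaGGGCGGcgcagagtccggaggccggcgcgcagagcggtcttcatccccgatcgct
Egr2: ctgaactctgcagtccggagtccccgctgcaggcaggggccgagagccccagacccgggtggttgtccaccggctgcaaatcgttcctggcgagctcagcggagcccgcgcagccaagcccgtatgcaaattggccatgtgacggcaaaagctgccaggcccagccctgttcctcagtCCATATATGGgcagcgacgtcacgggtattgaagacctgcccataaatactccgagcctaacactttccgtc
The Egr2 window held a CArG box that began 72 bases before the start, a motif present in 1.47% of 32851 RefSeq windows of this length. None of the other 5 windows held one, and Egr1 and Egr3 were not among them. GGAA stood 2 times in the Etv1 window and 2 times in the Elk3 window, and no copy was found in the Etv5 window, although 93.4% of all windows held at least 1. The windows of genes that did not rise held it too, with 3 copies in Egr2 (not marked above), 6 in Elf4 and 1 in Ets2. The Etv5 window, with 71.2% G and C against 46.4% for Etv1, held 3 copies of GGGCGG (32.7% of all windows held at least 1). Among the 6 windows, Elf4 alone held the AP-1 motif TGANTCA (at -39; 6.75% of all windows), and none held the Capicua motif TGAATGAA or TGAATGGA (2.07%), the EGR motif GCGGGGGCG or GCGTGGGCG (3.06%) or the CRE TGACGTCA (1.55%). All motifs were searched on both strands, and the EGR motif and GGGCGG share letters and can overlap. A match is a string of letters and not a bound site.

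Total counts ranged from 8319445 to 14402442 per library. As checks of the labels, Hras (listed as Hras1) rose with RAS from 61.8 ± 10.9 to 117.5 ± 2.3 CPM (counts scaled to a common library size, mean ± SD, n = 3, as throughout) in the S6K1 series (edgeR adjusted p = 0.00290). In the other series it rose from 58.9 ± 7.6 to 99.0 ± 6.8 CPM (edgeR adjusted p = 0.00568). Rps6kb1 stood at 30.6 ± 6.7 CPM in KO RAS and 69.0 ± 6.7 CPM in WT RAS (edgeR adjusted p = 0.234, or 0.000101 with the replicate number as a block). In the S6K1/S6K2 series Rps6kb1 stood at 37.5 ± 2.7 CPM in DKO RAS and 80.6 ± 4.5 CPM in WT RAS (edgeR adjusted p = 0.00908). Rps6kb2 stood at 2.84 ± 0.19 CPM in DKO RAS and 25.8 ± 2.7 CPM in WT RAS (edgeR adjusted p = 7.44e-05). Reads of Rps6kb1 thus remained in both knockouts. All 11 fibroblast markers were detected, with summed levels of 44153 to 54611 CPM in WT EV and 24153 to 36451 CPM with RAS. The sums were at most 36.3 CPM for 12 endothelial markers (Tie1, Robo4, Sox17 and Sox18 at or under 3 counts in every group) and 5.24 CPM for 9 epithelial markers (Krt5, Grhl2 and Esrp1 likewise). Of 14 macrophage markers none was at 0 in any group, and their summed level ran from 682 to 3388 CPM in WT EV, 764 to 3894 CPM in WT RAS and 255 to 901 CPM in KO RAS of the S6K1 series. The ranges in WT EV, WT RAS and DKO RAS of the S6K1/S6K2 series were 164 to 1499, 182 to 1064 and 75.1 to 248 CPM.

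The levels of the 7 ETS and 3 EGR genes in every library are plotted by group. Averaged over the 6 groups, of which 4 carried RAS, Elk3 and Etv4 had the highest levels per kilobase of exon of the 26 ETS genes measured, at 47.3 and 20.3 CPM per kilobase, followed by the repressor Erf at 15.9. In WT EV alone Etv4 stood at 7.57 and 5.21 CPM per kilobase in the S6K1 and S6K1/S6K2 series. In both it lay below Elk3, Erf (17.1 and 21.1), Elf1, Gabpa, Elf2, Ets2, Elf4 and Etv6. It also lay below Ets1 in the S6K1 series, and below Elk1, Elk4, Erg and Etv5 in the S6K1/S6K2 series. Over the 6 groups the remaining members followed in the order Ets2 (11.4), Ets1 (9.29), Elf4 (8.62), Etv5 (7.67) and Etv1 (4.10 CPM per kilobase). Ets1, Elf4 and Etv5 were close to one another and their order changed between groups, with Ets1 at 3.65 and Elf4 at 8.33 in WT EV of the S6K1/S6K2 series and at 11.7 and 8.39 in WT RAS of the S6K1 series. Ets2 lay below Ets1 in KO RAS (8.84 against 12.8 CPM per kilobase). On CPM within each group, the 10 genes differed in how tightly replicates held together. The pooled SD of log2(CPM + 0.5) was 0.14 for Elk3, 0.16 for Etv5, 0.20 for Elf4, 0.25 for Ets2 and 0.26 for Ets1, 0.32 for Etv1 and 0.35 for Etv4, and then 0.66 for Egr3, 0.76 for Egr1 and 0.90 for Egr2. The 3 EGR genes thus had the widest replicate spread of the set.

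**Figure D1:**
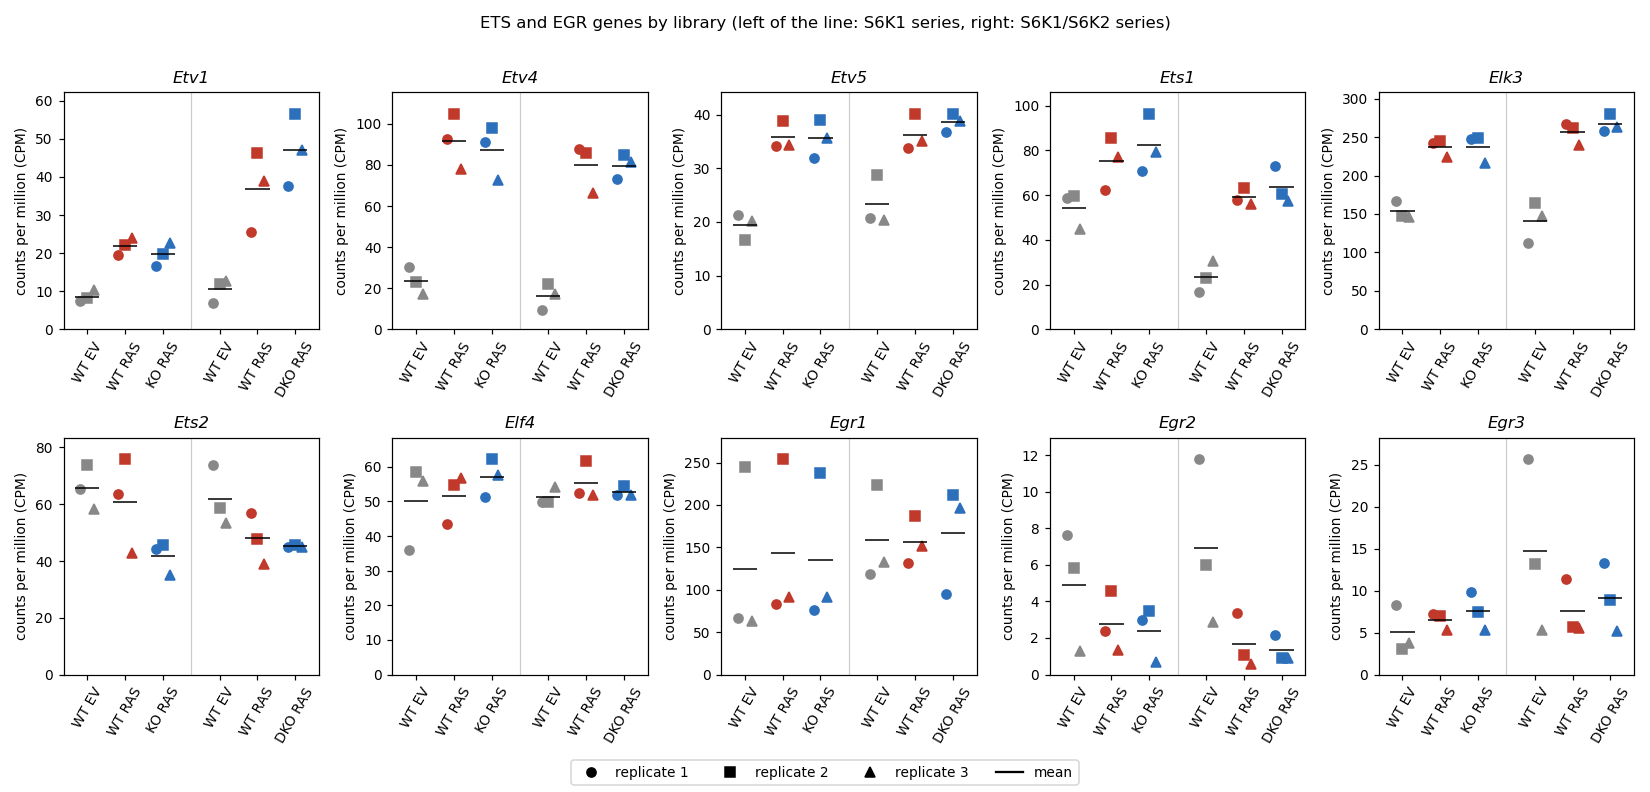
CPM (y axis, linear from 0) of the 10 genes in each of the 18 libraries (points, shape by replicate number, bars at the mean of 3), by group with the S6K1 series left and the S6K1/S6K2 series right of the line. All RAS libraries of Etv1, Etv4, Etv5 and Elk3 lie above all WT EV libraries of their series, while the libraries of Egr1 spread from 62.7 to 254 CPM with replicate 2 highest in every group.

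To ask which of these factors an active RAS moved in WT cells, WT RAS was compared with WT EV within each series. In the S6K1 series 4 of the 10 genes rose (Etv1, Etv4, Etv5 and Elk3) and none fell, against 7.15% of 14036 genes tested called higher and 6.09% called lower (edgeR's quasi-likelihood test, two-sided, Benjamini-Hochberg adjusted p under 0.05 over all genes tested). In the S6K1/S6K2 series the same 4 genes and Ets1 rose and none fell, against 13.5% of 13881 genes called higher and 12.7% called lower. The median log2 fold change of the 10 genes was 0.41 and 0.37 in the S6K1 and S6K1/S6K2 series, and that of all genes tested 0.0018 and -0.024.

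Etv4 and Etv1 showed the largest increases. Etv4, on chromosome 11, was 30.2, 23.3 and 17.0 CPM in the WT EV libraries (replicates 1 to 3) and 92.4, 104.8 and 78.0 CPM in the WT RAS libraries of the S6K1 series. The lowest RAS library stood well above the highest EV library, and the increase was 1.96 on the log2 scale (SE 0.22, adjusted p = 0.000666). Etv4 in the S6K1/S6K2 series went from 9.17, 21.9 and 17.4 CPM to 88.0, 85.7 and 66.2 CPM, again without overlap and up by 2.31 on the log2 scale (SE 0.27, adjusted p = 0.000498). Within replicate numbers its log2 difference ran from 1.60 to 2.16 in the S6K1 series and from 1.90 to 3.19 in the S6K1/S6K2 series, the largest being that of replicate 1, whose EV library was the lowest of all.

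Etv1, on chromosome 12, encodes the PEA3 factor also known as ER81. It was 7.38, 8.20 and 10.3 CPM in WT EV and 19.6, 22.1 and 24.0 CPM in WT RAS of the S6K1 series, an increase of 1.35 on the log2 scale (SE 0.18, adjusted p = 0.00148). The S6K1/S6K2 series went from 6.81, 11.9 and 12.8 CPM to 25.5, 46.3 and 38.9 CPM, an increase of 1.81 on the log2 scale (SE 0.29, adjusted p = 0.00206). Replicate 1 was the lowest of its group in 6 of 6 groups. Differences within replicate numbers were 1.19 to 1.38 and 1.57 to 1.91 on the log2 scale.

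Etv5, on chromosome 16 and also called ERM, had the smallest PEA3 change. It was 21.3, 16.7 and 20.2 CPM in WT EV and 34.2, 38.8 and 34.3 CPM in WT RAS of the S6K1 series, up by 0.88 on the log2 scale (SE 0.14, adjusted p = 0.00322). Values in the S6K1/S6K2 series were 20.8, 28.8 and 20.5 CPM and 33.7, 40.1 and 35.0 CPM, up by 0.64 on the log2 scale (SE 0.15, adjusted p = 0.0146). Every RAS library was above every EV library in both series, but leaving out replicate 2 of WT RAS from the S6K1/S6K2 series the change there was 0.56 with an adjusted p of 0.0572 (0.00241 to 0.0572 over all alternatives).

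Elk3, on chromosome 10, acts as a repressor of SRF targets until ERK phosphorylates it. It went from 166.8, 147.5 and 146.2 CPM to 242, 245 and 225 CPM in the S6K1 series. In the other series it went from 112, 164 and 147 CPM to 267, 262 and 240 CPM. The groups did not overlap in either series, and with the tightest replicates of the set the smaller log2 fold changes of 0.63 (SE 0.11, adjusted p = 0.00522) and 0.86 (SE 0.15, adjusted p = 0.00296) passed the test. Across the 18 libraries, centred within series, Elk3 was the gene most like Etv4 among 9829 genes with a mean of at least 100 counts (Pearson r = 0.991 on log2(CPM + 1)), followed by Cyb561 and Dyrk3. These points share the RAS contrast, so a high r is common to genes that moved with RAS, and the value is descriptive. The genes most like Etv1 were Hhip, Slc14a1 and BC031353 (r = 0.963 to 0.960), and those most like Etv5 were Col18a1, Ttyh1 and Pdpn (r = 0.960 to 0.958).

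Ets1, the founding member of the family, on chromosome 9, rose in the S6K1/S6K2 series and passed the test in the S6K1 series under the replicate block only. In the S6K1/S6K2 series it was 16.5, 23.1 and 30.8 CPM in WT EV and 58.0, 63.4 and 56.2 CPM in WT RAS, up by 1.33 on the log2 scale (SE 0.20, adjusted p = 0.00184). In the S6K1 series the WT EV libraries already held 58.8, 59.7 and 44.8 CPM and the WT RAS libraries 62.5, 85.5 and 77.1 CPM, up by 0.46 on the log2 scale (SE 0.17, adjusted p = 0.12). The groups of the S6K1 series did not overlap, but the lowest RAS library lay just above the highest EV library. The EV and RAS cells of a replicate number came from the same WT cells, and with that number as a block the change in the S6K1 series was 0.46 with an adjusted p of 0.0161, making 5 of 10 genes higher against 18.1% of all genes. The difference between the series was 0.86 on the log2 scale (SE 0.28, 95% confidence interval 0.26 to 1.46, unadjusted p = 0.00762, adjusted p = 0.277 over 14483 genes by edgeR), and leaving out replicate 3 of WT EV from the S6K1/S6K2 series it was 1.11 with an adjusted p of 0.0447. Over all alternatives the adjusted p of that difference ran from 0.0447 to 0.568. No member passed the test of a difference in RAS effect between the series, nor did any gene (0%) by edgeR. An unadjusted p under 0.05 was found for 1819 of all genes and 1 of the 10, and DESeq2 called 143 genes, none of them a member. The series differ in their embryos, and a batch that came with a series cannot be told apart from it. The genes most like Ets1 over the 18 libraries were Ptgs2, Frmd4a and Atp2c1 (r = 0.977 to 0.976).

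Ets2 and Elf4 did not pass the test with RAS. Ets2, on chromosome 16 and a target of RAS-ERK phosphorylation, was 65.2, 73.8 and 58.4 CPM in WT EV and 63.8, 75.9 and 42.7 CPM in WT RAS of the S6K1 series (log2 fold change -0.11, 95% confidence interval -0.58 to 0.35, edgeR adjusted p = 0.770). It was, in the S6K1/S6K2 series, 73.7, 58.7 and 53.2 CPM and 57.1, 47.9 and 39.1 CPM (log2 fold change -0.37, 95% confidence interval -0.73 to -0.0044, edgeR adjusted p = 0.122), lower in RAS in 3 of 3 replicate numbers though the groups overlapped. Elf4, an X-linked ETS activator, kept between 36.0 and 62.2 CPM over all 18 libraries, with log2 fold changes of 0.043 (95% confidence interval -0.39 to 0.48) and 0.11 (95% confidence interval -0.14 to 0.35).

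**Figure D2:**
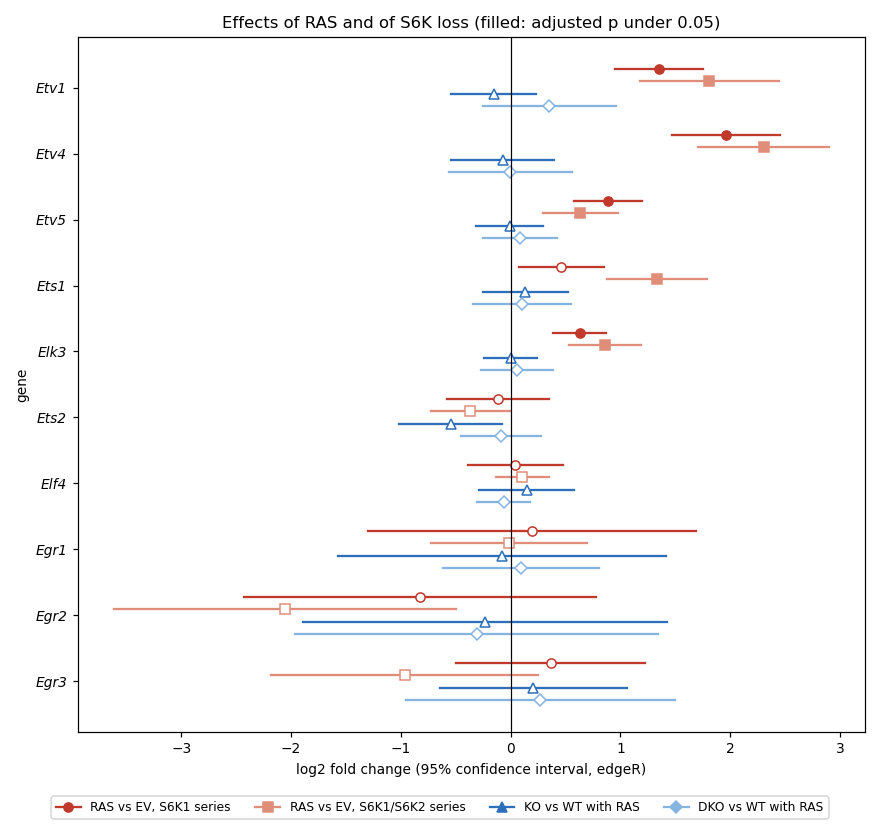
Log2 fold change (x axis) with its 95% confidence interval from edgeR for the 10 genes in 4 comparisons, filled where the adjusted p was under 0.05. The RAS effects of Etv1, Etv4, Etv5 and Elk3 are filled in both series, whereas all 20 points for loss of S6K1 or of S6K1 and S6K2 are open and lie between -0.55 and 0.35.

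None of the EGR genes passed the test with RAS in the fit without the block. Egr1, the prototype immediate early zinc finger gene, was 67.2, 244 and 62.7 CPM in WT EV, 83.2, 254 and 91.0 CPM in WT RAS and 75.8, 238 and 91.3 CPM in KO RAS of the S6K1 series. Replicate 2 was thus the highest in all 3 groups, by more than any difference between the group means. Values in the S6K1/S6K2 series were 119, 223 and 133 CPM in WT EV, 131, 188 and 151 CPM in WT RAS and 94.9, 211 and 196 CPM in DKO RAS, again with replicate 2 the highest in all 3 groups. The log2 fold change with RAS was 0.20 (95% confidence interval -1.30 to 1.69) and -0.016 (95% confidence interval -0.72 to 0.69). With the replicate block the S6K1 series gave 0.29 (SE 0.11, against 0.66 without the block) with an edgeR adjusted p of 0.0609, and Egr1 was higher in RAS in 3 of 3 replicate numbers there, by 0.057 to 0.53 on the log2 scale.

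The gene most like Egr1 over the 18 libraries was Fos (r = 0.865), followed by Bcl7a (0.833) and Zfp36 (0.795). In the S6K1 series Fos was 4.94, 49.9 and 6.14 CPM in WT EV and 6.49, 38.2 and 4.98 CPM in WT RAS, with replicate 2 the highest in both, as for Egr1. Fos in the S6K1/S6K2 series ran only from 6.16 to 14.7 CPM and replicate 2 led in WT EV alone. Another immediate early gene, the nuclear receptor Nr4a1, was chosen after its values were seen and had a different order, with replicate 1 highest and replicate 3 lowest in 6 of 6 groups (209, 98.1 and 20.0 CPM in the WT EV group of the S6K1 series). Replicates were from separate embryos, per the study's methods.

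Egr2, also known as Krox20 and on chromosome 10, had the fewest counts of the set, with 0.556 to 11.8 CPM and as few as 6 counts in a library. In the S6K1/S6K2 series it was 11.8, 6.01 and 2.88 CPM in WT EV and 3.35, 1.07 and 0.556 CPM in WT RAS. It was lower in RAS in 3 of 3 replicate numbers, by 1.67 to 2.05 on the log2 scale, although the groups overlapped. The log2 fold change was -2.06 (SE 0.70, edgeR adjusted p = 0.0544), and under the replicate block -2.14 (edgeR adjusted p = 0.00365), which made 1 of 10 genes lower against 13.7% of all genes. The adjusted p was 0.0185 by DESeq2 and 0.00413 by edgeR without a filter. Without WT EV replicate 3 or without WT RAS replicate 1 the change was -2.42 (adjusted p = 0.0262) and -3.09 (adjusted p = 0.0199), and over all alternatives the adjusted p ran from 0.00365 to 0.168. In the S6K1 series Egr2 was 7.66, 5.81 and 1.28 CPM in WT EV and 2.39, 4.59 and 1.37 CPM in WT RAS, with a log2 fold change of -0.83 (95% confidence interval -2.43 to 0.78, edgeR adjusted p = 0.508) and 1 of 3 replicate numbers higher in RAS. Of the promoter windows searched above, its window is the one with the CArG box.

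Egr3, on chromosome 14, was 8.28, 3.06 and 3.76 CPM in WT EV and 7.26, 7.01 and 5.30 CPM in WT RAS of the S6K1 series, and 25.7, 13.2 and 5.33 CPM and 11.4, 5.72 and 5.56 CPM in the S6K1/S6K2 series. The log2 fold changes of 0.37 (edgeR adjusted p = 0.593) and -0.97 (edgeR adjusted p = 0.215) had opposite signs, and their difference was -1.34 (95% confidence interval -2.88 to 0.19, edgeR adjusted p = 0.446). Replicate 1 was the highest Egr3 library in 6 of 6 groups and replicate 1 also led for Egr2 in 4 of 6, while replicate 2 led for Egr1 in 6 of 6. Same-numbered WT EV and WT RAS libraries are the same cells, and KO and WT are littermates, so such counts of groups are not independent. The series differ in their embryos, and a number does not link them. Over the 18 libraries, Egr2 and Egr3 had r = 0.63, Egr2 and Ets2 0.79, Egr1 and Egr2 0.12 and Egr2 and Etv1 -0.80, as descriptions of libraries that share the RAS contrast.

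**Figure D3:**
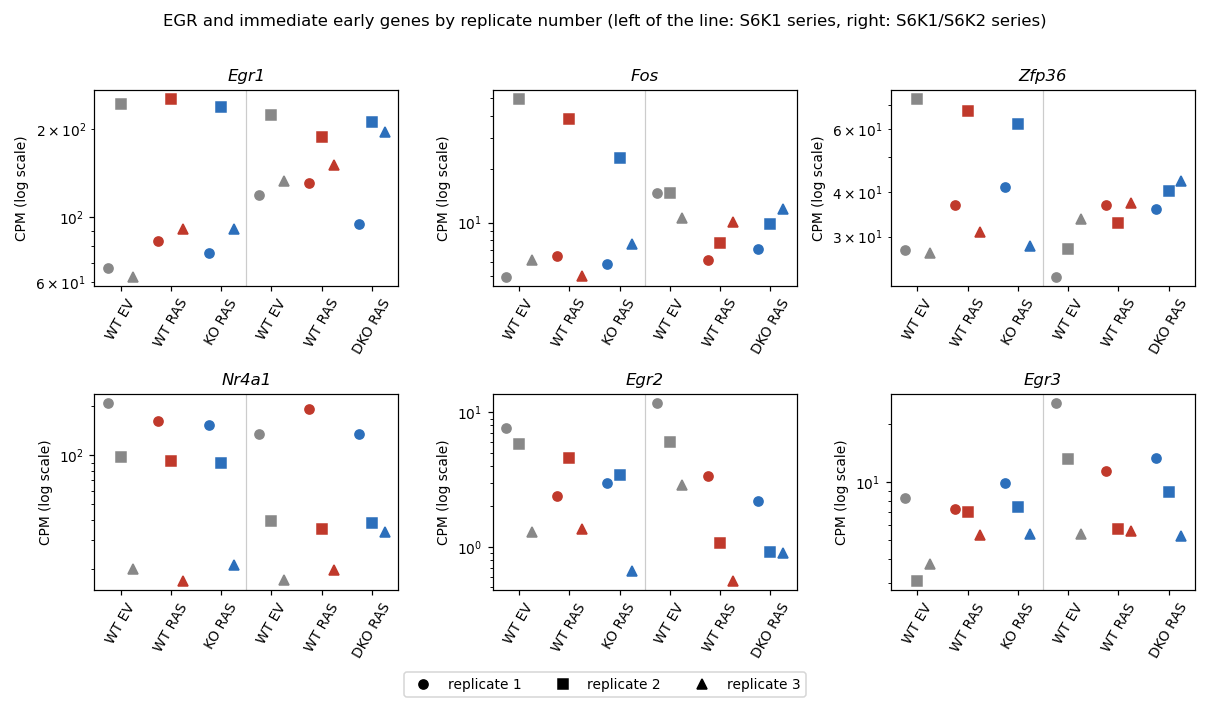
CPM (log axis) of the 3 EGR genes and of Fos, Zfp36 and Nr4a1 in the 18 libraries, by group and with marker shape for the replicate number. Replicate 2 of Egr1 is highest in 6 of 6 groups, and replicate 1 of Egr3 and of Nr4a1 is highest in 6 of 6.

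Whether the kinases bear on the levels of these factors under RAS was asked by setting KO RAS, and DKO RAS, against WT RAS of the same series. None of the 10 genes passed the test in either comparison, by edgeR without the block or by DESeq2. By that edgeR fit 1 of the 10 genes in the S6K1 series (Ets2) and 0 in the S6K1/S6K2 series had an unadjusted p under 0.05. Of all genes tested, 963 of 14036 and 179 of 13881 did in these comparisons. Few genes of any kind were called there (0.00712% and 0.0216% of all genes). In KO RAS Rps6kb1 itself was not called by edgeR without the block (adjusted p = 0.234), though DESeq2 called it (adjusted p = 8.06e-07). A missing call in that edgeR fit is thus no evidence of an unchanged level, and a missing call by DESeq2 does not show one either. With the replicate block Ets2 was lower in KO RAS (edgeR adjusted p = 0.0221), against 3.61% of all genes, and no member was called in DKO RAS. Etv4 held 91.2, 98.0 and 72.7 CPM in KO RAS (log2 fold change -0.071, 95% confidence interval -0.54 to 0.40) and 72.9, 84.8 and 81.3 CPM in DKO RAS (-0.0045, 95% confidence interval -0.57 to 0.56). Etv1 held 16.7, 19.7 and 22.7 CPM in KO RAS (log2 fold change -0.15, 95% confidence interval -0.54 to 0.23) and 37.8, 56.6 and 47.2 CPM in DKO RAS (0.35, 95% confidence interval -0.25 to 0.96). The difference between those Etv1 effects was 0.53 (95% confidence interval -0.19 to 1.26, unadjusted p = 0.138 by edgeR's quasi-likelihood test). With the replicate block the log2 fold change in KO RAS was -0.074 for Etv4 (SE 0.11, against 0.21 without the block). For Etv1 it was -0.16 (SE 0.098, against 0.17). No member passed the test of a difference in loss effect between the series (0 of 10 by edgeR and DESeq2 and 0 at an unadjusted p under 0.05, with 0.0069% of all genes called). Among all 14483 genes tested there by edgeR, 178 had an unadjusted p under 0.05.

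Elk3 and Etv5 had narrow intervals upon loss of the kinases. Elk3 was 248, 249 and 216 CPM in KO RAS (log2 fold change 0.0016, 95% confidence interval -0.24 to 0.24) and 257, 280 and 263 CPM in DKO RAS (0.059, 95% confidence interval -0.27 to 0.38). Etv5 was 31.9, 39.1 and 35.7 CPM in KO RAS (-0.0084, 95% confidence interval -0.31 to 0.30) and 36.8, 40.1 and 38.9 CPM in DKO RAS (0.088, 95% confidence interval -0.25 to 0.43). Changes of more than 0.43 on the log2 scale in either direction lie outside these 4 intervals. Ets1 was 70.9, 96.3 and 79.5 CPM in KO RAS and 73.1, 60.3 and 57.3 CPM in DKO RAS, with log2 fold changes of 0.13 and 0.10. The intervals of the EGR genes were far wider without the block, reaching from -1.89 to 1.43 for Egr2 in the S6K1 series. Within littermate pairs they were narrower, and the SE in KO RAS fell to 0.33 for Egr2 (0.74 without the block) and to 0.11 for Egr1 (0.66 without it), with log2 fold changes of -0.29 and -0.074 and edgeR adjusted p-values of 0.701 and 0.768.

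Ets2 was the member with the largest change in point estimate upon loss of S6K1. It was 44.3, 45.8 and 34.9 CPM in KO RAS against 63.8, 75.9 and 42.7 CPM in WT RAS, lower in 3 of 3 littermate pairs, while the groups overlapped. The log2 fold change was -0.55 (SE 0.21, edgeR adjusted p = 0.604). With the replicate block it was -0.52 with an edgeR adjusted p of 0.0221, which made 1 of 10 genes lower against 3.61% of all genes, and over all alternatives the adjusted p ran from 0.0221 to 1. In the same comparison all 14 macrophage markers were lower in KO RAS in point estimate (median log2 fold change -2.19), and all 14 passed the test under the block. Spi1, an ETS factor that governs macrophage development and is listed as Sfpi1, was lower as well under the block (-2.13, edgeR adjusted p = 0.00191). The part of these markers in the Ets2 value was not tested, and in bulk RNA fewer cells of a type cannot be told apart from less RNA per cell. Ets2 in the S6K1/S6K2 series was 44.9, 45.6 and 44.9 CPM in DKO RAS against 57.1, 47.9 and 39.1 CPM in WT RAS (log2 fold change -0.088, 95% confidence interval -0.45 to 0.28). In that comparison 14 of 14 macrophage markers were again lower in point estimate (median -1.99), but only 1 of 14 passed the test under the block. The genes most like Ets2 over the 18 libraries were Apod, Cd72 and Irx2 (r = 0.928 to 0.915).

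The levels reached with RAS in knockout cells were also set against WT EV, the same control libraries as above. In KO RAS 5 of 10 genes were higher (Etv1, Etv4, Etv5, Elk3 and Ets1) and none lower, against 9.55% and 8.56% of all genes. In DKO RAS the same 5 were higher and Egr2 lower, against 13.1% and 12.6%. The log2 fold changes were 1.20 in KO RAS and 2.17 in DKO RAS for Etv1, 1.89 and 2.30 for Etv4, 0.88 and 0.72 for Etv5, 0.63 and 0.92 for Elk3, and 0.60 and 1.44 for Ets1. The Ets1 call in KO RAS (edgeR adjusted p = 0.0423) was lost without any 1 of 5 libraries (WT EV replicates 1, 2 and 3 and KO RAS replicates 2 and 3), with log2 fold changes of 0.47 to 0.66 and adjusted p-values of 0.0765 to 0.151. It was also lost in fits of the 6 compared libraries (0.59, adjusted p = 0.0564) and of all 18 libraries (0.58, adjusted p = 0.0519), and was kept under the block (adjusted p = 0.00379). The Egr2 decrease in DKO RAS was -2.37 (SE 0.71, edgeR adjusted p = 0.0353), from 11.8, 6.01 and 2.88 CPM to 2.18, 0.912 and 0.902 CPM, with no overlap. That call was lost without WT EV replicate 1 (-1.74, adjusted p = 0.0996), WT EV replicate 2 (-2.45, 0.0685), DKO RAS replicate 2 (-2.15, 0.122) or DKO RAS replicate 3 (-2.13, 0.103). Under the replicate block 2 of 10 genes were lower in KO RAS, Egr2 (-1.05, edgeR adjusted p = 0.0212) and Ets2 (-0.66, edgeR adjusted p = 0.000811), against 20.4% of all genes. All 14 macrophage markers were lower there too, as were 13 of 14 in DKO RAS, and their part in these values was not tested.

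None of the other ETS genes rose with RAS. Of 19 further family members, 11 were tested in each series, and the other 8 (among them the epithelial factors Elf3, Elf5 and Ehf) were at or under 3 counts in every library of each group, except Spib in WT EV of the S6K1/S6K2 series. Of the 11, 2 fell in the S6K1 series and 3 in the S6K1/S6K2 series, with median log2 fold changes of -0.24 and -0.39. The shares of all genes called lower were 6.09% and 12.7%, and those called higher 7.15% and 13.5%. Under the replicate block 5 fell in the S6K1 series, where 18.1% of all genes were called lower in that fit. Erg, an endothelial and chondrocyte ETS factor, fell from 7.45 ± 2.32 to 1.54 ± 0.62 CPM (log2 fold change -2.26, adjusted p = 0.00361) and from 20.1 ± 6.8 to 4.82 ± 3.51 CPM (-2.06, adjusted p = 0.0145). Erf, an ETS repressor that ERK expels from the nucleus, fell by 0.42 (adjusted p = 0.0257) and by 0.58 (adjusted p = 0.00427) on the log2 scale, and Elf2 fell in the S6K1/S6K2 series by 0.46 (adjusted p = 0.0162). The other ternary complex factors Elk1 and Elk4 did not pass the test (log2 fold changes of -0.20 and 0.0014 in the S6K1 series and -0.069 and -0.39 in the S6K1/S6K2 series). Upon loss of S6K1 or of both kinases none of the 11 passed the test by edgeR without the block, and with it Spi1 alone was lower, in KO RAS. The largest differences without the block were those of Spi1 (-2.24 and -1.61) and Fli1 (-0.92 and -0.32), both of which are expressed in blood cells. The macrophage marker sums given above moved with them, and their part was not tested.

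**Figure D4:**
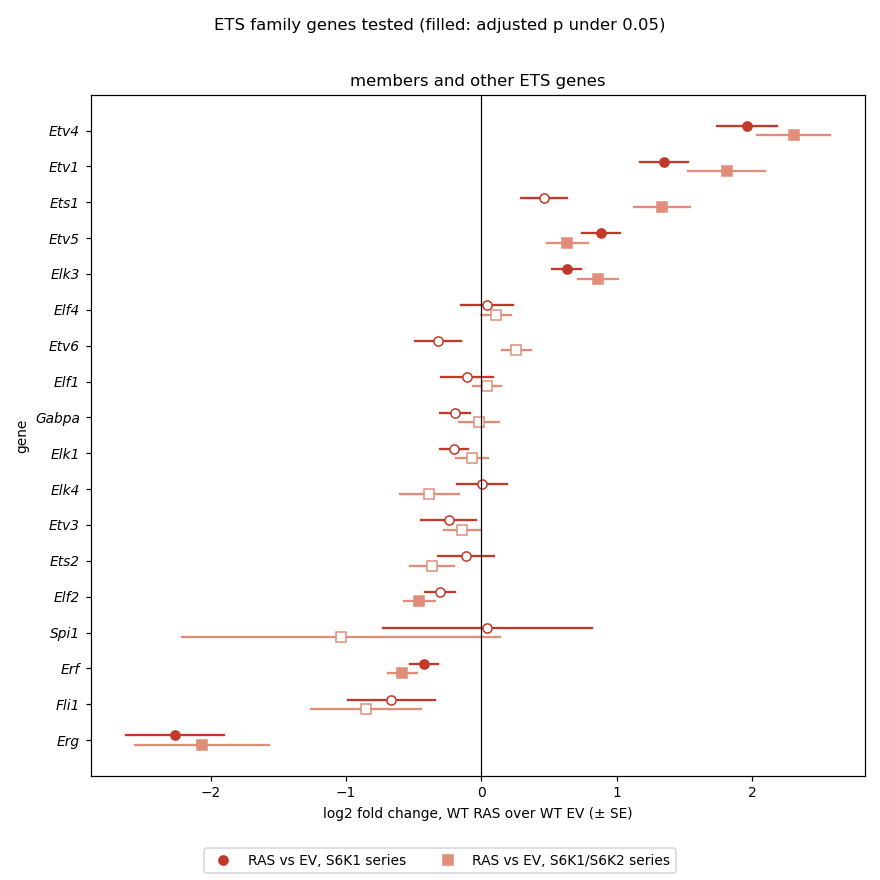
Log2 fold change of WT RAS over WT EV (x axis, ± SE from edgeR) for the 18 ETS genes tested in both series, filled where the adjusted p was under 0.05. The PEA3 genes and Elk3 lie to the right in both series, and Erg and Erf to the left.

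Of 13 regulators of ETS proteins, none rose and 1 fell in the S6K1 series (1 and 5 under the replicate block), and 2 rose and 3 fell in the S6K1/S6K2 series, with median log2 fold changes of -0.18 and -0.13. The shares of all genes called higher and lower were 7.15% and 6.09% (18.1% each way under the block) and 13.5% and 12.7%, so the counts of regulators that rose were near or below the background. Atxn1, a partner of the PEA3 repressor Capicua, fell in both series (log2 fold changes of -0.60, adjusted p = 0.0170, and -0.45, adjusted p = 0.0338). Capicua itself (Cic) was 182 ± 41 CPM in WT EV and 134 ± 39 CPM in WT RAS of the S6K1 series, and 179 ± 16 and 179 ± 32 CPM in the S6K1/S6K2 series. It passed the test under the block in the S6K1 series alone (-0.45, edgeR adjusted p = 0.0189, against 0.288 without the block). In the S6K1/S6K2 series Trib1, an adaptor for the COP1 ubiquitin ligase that degrades PEA3 proteins, rose by 0.85 (adjusted p = 0.0364), as did the SRF coactivator Mrtfb (listed as Mkl2) by 0.64 (adjusted p = 0.0446), while the inhibitors of ETS DNA binding Id2 and Id1 fell by 2.59 (adjusted p = 0.0148) and 1.23 (adjusted p = 0.0402, or 0.0722 under the block). Srf was 39.0 ± 2.6 CPM against 43.6 ± 6.8 CPM in the WT EV group of the S6K1 series, and 30.4 ± 3.9 against 33.4 ± 3.1 CPM in the other, with no call. The EGR corepressors Nab1 and Nab2 did not pass the test (log2 fold changes of 0.058 and 0.045 in the S6K1 series and 0.21 and 0.050 in the S6K1/S6K2 series), and neither did Wt1, an EGR-like zinc finger factor tested in the S6K1 series only (-1.11, edgeR adjusted p = 0.237), although it was lower under the block (-1.18, edgeR adjusted p = 0.00703). With loss of the kinases none of these genes passed the test, the largest differences being Id2 (-1.21, and called lower under the block with an edgeR adjusted p of 0.00571) and Nab2 (0.32) in KO RAS and Id1 (0.29) in DKO RAS.

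Most genes known as outputs of ERK rose with RAS. Of 15 listed ERK output genes 14 were tested, and 11 rose and 1 fell in each series, with median log2 fold changes of 1.18 and 2.01. Of all genes, 7.15% were called higher and 6.09% lower in the S6K1 series, and 13.5% and 12.7% in the other. These shares also hold for the immediate early counts without the block. Dusp6, the ERK phosphatase, rose from 50.3 ± 22.5 to 221 ± 30 CPM (log2 fold change 2.13, adjusted p = 0.00266) in the S6K1 series. It rose from 22.4 ± 3.3 to 217 ± 37 CPM (3.28, adjusted p = 3.25e-05) in the other. Dusp5, a nuclear ERK phosphatase, rose by 2.82 (adjusted p = 0.00250) and 3.19 (adjusted p = 0.000365), and the feedback inhibitor Spry4 by 2.04 (adjusted p = 0.00109) and 2.74 (adjusted p = 0.000314). Dusp4, of the same phosphatase family, rose by 3.17 (adjusted p = 0.000409) in the S6K1/S6K2 series and was at 1.22 in the other (adjusted p = 0.0609, or 0.00841 under the block). Under the block the feedback inhibitor Spry1 was lower in the S6K1 series (-0.77, edgeR adjusted p = 0.0126), where 12 of the 14 rose and 2 fell. Epha4, an ephrin receptor, fell by 1.90 (adjusted p = 0.00735) and 2.87 (adjusted p = 3.26e-05). Of 15 immediate early genes, 2 rose in the S6K1 series (Jun and Maff, by 1.22 and 1.16), and in the S6K1/S6K2 series 6 rose, among them Maff (1.34), Ccn1 (listed as Cyr61, 1.25) and Dusp1 (1.21), and Klf2 fell by 1.70. Under the replicate block 6 rose and 1 fell in the S6K1 series, and 5 rose and 1 fell in the S6K1/S6K2 series, where the call of Jun was lost (0.68, edgeR adjusted p = 0.0547, against 0.71 and 0.0352 without the block). In these blocked fits 18.1% and 15% of all genes were called higher and 18.1% and 13.7% lower. The list medians were 0.21 and 0.37. Upon loss of S6K1 or both kinases none of the ERK output or immediate early genes passed the test by edgeR, with or without the block. The largest differences were Epha2 at 0.71 and Spry1 at -0.38 in KO RAS and Dusp4 at -0.21 and Ccnd1 at 0.20 in DKO RAS, and among the immediate early genes Fos and Klf2 in KO RAS, each at -0.44.

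**Figure D5:**
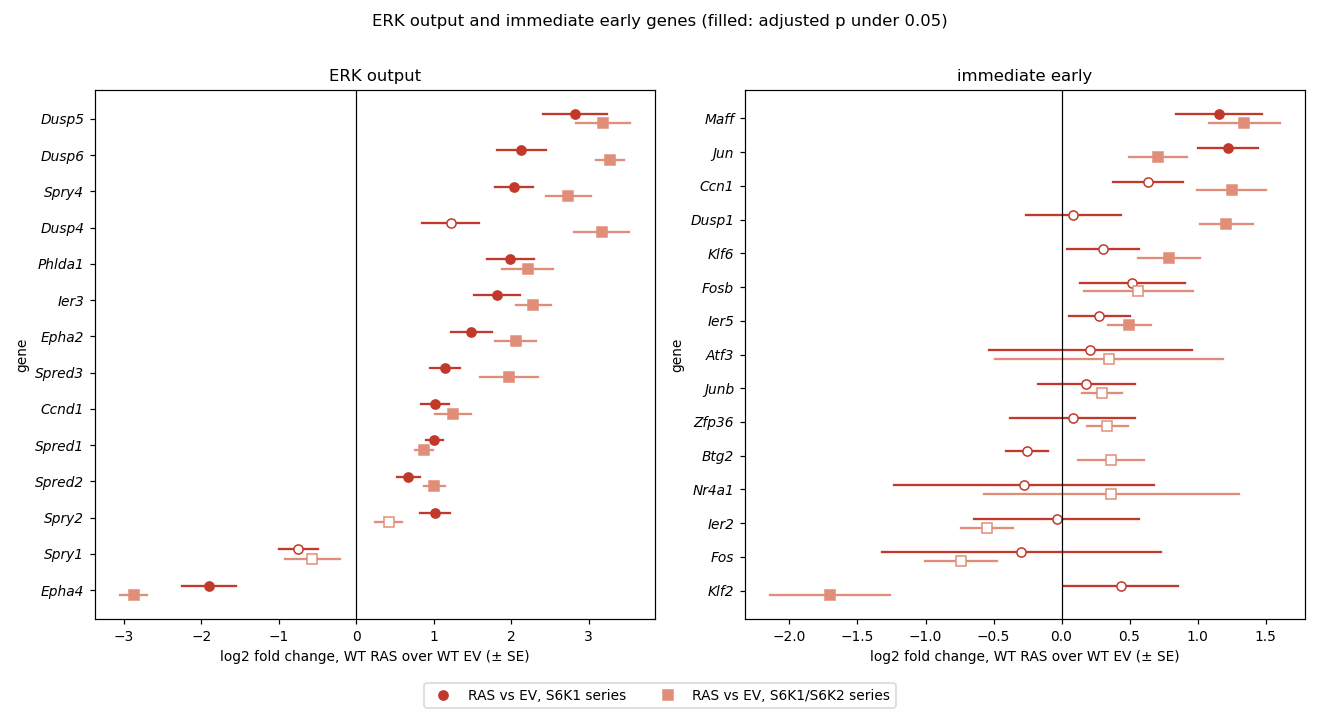
Log2 fold change of WT RAS over WT EV (x axis, ± SE from edgeR) for 14 ERK output and 15 immediate early genes in both series, filled where the adjusted p was under 0.05. In the left panel 11 genes are filled to the right of 0 in each series, and in the right panel 2 in the S6K1 series and 6 in the S6K1/S6K2 series.

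Genes known as targets of ETS or EGR factors were counted last. Of 17 genes, 7 rose and 2 fell with RAS in the S6K1 series and 13 rose and 1 fell in the S6K1/S6K2 series. Of all genes, 7.15% were called higher and 6.09% lower in the S6K1 series, and 13.5% and 12.7% in the other. Under the replicate block 13 rose and 2 fell, and 14 rose and 1 fell, against 18.1% each way and against 15% higher and 13.7% lower. The median log2 fold changes without the block were 1.00 and 2.19, and were the same with Mmp1a and Cdh5 set at their bounds. The protease gene Mmp10 rose from 3.82 ± 2.19 to 512 ± 166 CPM (adjusted p = 0.000127) and from 0.438 ± 0.462 to 372 ± 104 CPM (adjusted p = 3.57e-05). The collagenase gene Mmp1a and Cdh5, the endothelial cadherin, were at or under 3 counts in every WT EV library and were, against 3 counts per library, at least 238-fold and 11.8-fold higher in WT RAS of the S6K1 series. In the S6K1/S6K2 series they were at least 76.0-fold and 10.3-fold higher. The summed endothelial markers, Cdh5 among them, also went from 13.7 to 20.0 CPM in WT EV to 22.7 to 29.3 CPM in WT RAS of the S6K1 series and from 16.5 to 26.7 CPM to 29.7 to 33.2 CPM in the other, and their part was not tested. Mmp14, a membrane-bound metalloprotease gene, fell by 0.99 (adjusted p = 0.00250) and 0.92 (adjusted p = 0.00154). Upon loss of the kinases none of the 17 passed edgeR's test without the block, and with it Mmp1a was lower in KO RAS (-0.57, edgeR adjusted p = 0.0139). The largest differences were Mmp3 at -0.88 and Mmp13 at -0.70 in KO RAS and Mmp9 at -0.75 and Mmp3 at 0.49 in DKO RAS.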

How the data were processed

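RNA-seq of 18 MEF libraries was analysed from 1 table of raw counts per gene that the authors deposited, with no normalization. Per the study's methods, single-end reads of stranded poly(A) libraries were mapped with TopHat to mm9 and counted with HTSeq, whereas the submitters' processing notes name STAR 2.7.1a, DESeq2 and mm10, so aligner and build are not settled. The table lists 55401 Ensembl identifiers, of which 32589 were given a symbol and held 99.1% of all counts. Exon lengths and chromosomes came from GENCODE on NCBIM37, and promoters from RefSeq on GRCm38.p6 (the first listed start whose transcribed bases occur in a GENCODE transcript of the gene, or the first listed).

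Groups were taken from the labels. The tests used edgeR 4.0.16 (R 4.3.3), with 1 fit per series over 9 libraries, group as the only term, TMM scaling and filterByExpr (minimum count 10). Quasi-likelihood tests were two-sided and p-values were adjusted by Benjamini-Hochberg over all genes tested, at 0.05. Differences between series were fitted over all 18 libraries. CPM values are TMM-scaled within a series, and correlations use log2(CPM + 1) centred within series. The limit that a count of 0 allows was taken as 3 counts, for counting error only. Total counts per library were 8319445 to 14402442, and no replicate pair agreed within sampling noise (lowest chi-square per degree of freedom 7.98). Replicates came from separate embryos per the study's methods. The script was tested on simulated data with known changes.

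Same-numbered libraries came from the same WT cells (EV and RAS) or from littermates (KO and WT), and their deviations from the group means correlated at 0.28 to 0.75 in those comparisons and in KO RAS against WT EV, so a blocked fit by replicate number is given where it changes a call. DKO and WT were not littermates, with correlations of -0.049 to 0.49 for DKO against WT RAS and -0.14 to 0.28 against WT EV, and shared only a number.

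The 10 genes and all gene lists were chosen with earlier results of these data known, so a list's direction is no independent evidence. All 10 genes are named. Of each other list, the genes past the threshold are named, up to 3 each way with the largest change per RAS comparison, or else up to 2 with the largest difference, together with the 3 genes most like Etv1, Etv4, Etv5, Ets1, Ets2 and Egr1. Elk1, Elk4, Cic, Srf and Nr4a1 were named after their values were seen. Alternatives were DESeq2 (1.42.0), its size factors, no filter, a minimum of 10 counts in each library, leaving out each library, the block, the 6 compared libraries alone and all 18 libraries. Sequences of Etv4, Ets1, Egr1 and Egr3 are not shown. The values of 1 gene of the target list, which is included in that list's counts, are not reported here.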

Additional observations from a re-analysis of the deposited data

How the results depend on the processing

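Of 842 values of the 10 genes under an alternative, 760 kept their direction and their side of the threshold, 12 lost and 16 gained a call, and 54 changed sign, none of them with an adjusted p under 0.05 in either fit. The calls of Etv1, Etv4 and Elk3 with RAS were kept under every alternative run. With the replicate number as a block, 5085 genes were called for RAS in the S6K1 series (1859 without it), 583 for KO against WT RAS (1 without it), 8 for DKO against WT RAS (3 without it), 5766 for KO RAS against WT EV and 58 for the RAS difference between series. Members called lower under the block were 1 for RAS in the S6K1/S6K2 series (Egr2), 1 for KO against WT RAS (Ets2), 2 for KO RAS against WT EV (Egr2 and Ets2) and 2 for DKO RAS against WT EV (Egr2 and Ets2), where libraries shared only a number and 13.8% of all genes were called lower. DESeq2 called 63 genes for KO, 10 for DKO and 143 for the RAS difference, and edgeR without a filter 108, 11 and 204. With only the 6 compared libraries KO gave 0 genes, and with all 18 libraries KO gave 4 and DKO 7. DESeq2 and the unfiltered fit each called 1 member lower for RAS in the S6K1/S6K2 series (Egr2) and 1 for KO RAS against WT EV (Ets2), where the fits of 6 and of 18 libraries also called 1 (Ets2). With at least 10 counts in every library Egr2 was not tested, which left 0 members lower for DKO RAS against WT EV. Egr1 with RAS in the S6K1/S6K2 series changed sign under the block (0.023), DESeq2 size factors (0.0018), DESeq2 (0.0019), at least 10 counts (0.0047) and 6 libraries (0.0045). Elk3 in KO changed sign under the same settings (-0.00016, -0.0064, -0.0064, -0.0075 and -0.022) and with 18 libraries (-0.024), and Etv4 in DKO without a filter (0.014) and with 18 libraries (0.00070). Leaving out 1 library at a time gave 1043 to 1818 genes called for RAS in the S6K1 series, 2050 to 4199 in the S6K1/S6K2 series, 0 to 22 for KO, 1 to 2 for DKO, 1325 to 2139 for KO RAS and 1999 to 4044 for DKO RAS against WT EV, and 0 to 290 for the RAS difference. Members lower ranged from 0 to 1 for RAS in the S6K1/S6K2 series and from 0 to 2 for DKO RAS against WT EV, and members higher from 0 to 1 for the RAS difference. Log2 fold changes that crossed 0 ranged, for RAS in the S6K1 series, from -0.16 to 0.18 for Elf4, -0.50 to 1.14 for Egr1 and -0.29 to 0.086 for Ets2, and in the S6K1/S6K2 series from -0.19 to 0.32 for Egr1. For KO they ranged from -0.17 to 0.046 for Etv4, -0.081 to 0.054 for Etv5, -0.77 to 0.62 for Egr1, -0.61 to 0.32 for Egr2, -0.040 to 0.066 for Elk3 and -0.040 to 0.40 for Egr3. For DKO they ranged from -0.12 to 0.070 for Etv4, -0.22 to 0.056 for Ets2, -0.12 to 0.38 for Egr1, -0.85 to 0.73 for Egr2, -0.11 to 0.022 for Elf4, -0.0079 to 0.17 for Ets1 and -0.10 to 0.69 for Egr3. Against WT EV they ranged from -0.032 to 0.31 for Elf4 and -0.58 to 1.05 for Egr1 in KO RAS, and from -0.12 to 0.41 for Egr1 in DKO RAS. The block also called Ets1 higher for RAS in the S6K1 series (0.46, adjusted p = 0.0161) and changed no other call of the 10 genes. The Ets1 call in KO RAS against WT EV was lost with 6 libraries (0.59) and with 18 libraries (0.58). The causes of these shifts were not tested beyond the number of genes and libraries each setting holds. With 3 libraries a group and Egr2 at 6 to 135 counts, the depth limits what can be seen in that gene.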
